A study of Homo sapiens with 12 samples.

Results

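The genes described here are 10 ADAMTS metalloproteinases (ADAMTS1, 4, 5, 6, 7, 9, 10, 12, 13 and 15) out of 26334 gene symbols in the count files. The cells were A549, a line from a human adenocarcinoma of the lung. They were chosen by symbol with the measured counts of these libraries over the 4 conditions in view, so their levels and differences are given below as a description with no p-value. Where members are counted past limits, the count stands beside the same share of all genes and is not evidence about the members. The cells expressed either shControl, a control hairpin, or shRNF113A, which targets the spliceosome protein RNF113A. They were left untreated or exposed to Cisplatin, a platinum drug that crosslinks DNA, at 25 µg/ml for 20 h per the sample labels. The study's text gives 25 µM for most of its Cisplatin experiments on cells, and its sequencing methods give no dose. All cells, the controls included, had been infected with lentivirus and selected with puromycin at 1 µg/ml for 4 days. Each of the 4 conditions had 3 libraries, which the study's methods call biological replicates. Neither the methods nor the labels say whether these came from separate infections. The p-values therefore measure the spread between these libraries and may not cover that between infections. In such bulk samples fewer cells with a transcript and less of it per cell cannot be told apart. Libraries held 33859097 to 56071514 read pairs, of which 26220526 to 45721152 were assigned to genes on the strand of the gene.

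The ADAMTS proteins are secreted zinc proteases that carry a disintegrin-like module and thrombospondin type 1 repeats. They are made as proenzymes, are cut to the active form by furin-like proprotein convertases, and act on the extracellular matrix around the cell. The family is commonly grouped by its targets: proteoglycan-cleaving enzymes (ADAMTS1, 4, 5, 9 and 15), the pair that cleaves cartilage oligomeric matrix protein (ADAMTS7 and ADAMTS12), the fibrillin-linked pair (ADAMTS6 and ADAMTS10), and ADAMTS13, which trims von Willebrand factor in blood.

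The targeted transcript was only slightly lower in the libraries labelled shRNF113A. RNF113A stood at 19.9 ± 0.397 CPM (read pairs of the gene relative to all assigned read pairs of its library, scaled by TMM, SD, n = 3) in untreated control cells, 16.0 ± 0.772 in untreated depleted cells, 29.4 ± 1.95 in Cisplatin-treated control cells and 26.7 ± 2.88 in Cisplatin-treated depleted cells. Its depletion term was -0.23 (SE 0.07) on the log2 scale, with an adjusted p of 0.0185 in edgeR's quasi-likelihood test. With Cisplatin the libraries overlapped, at 31.5, 28.9 and 27.7 CPM in control cells and 25.8, 24.3 and 29.9 in depleted cells. The word depleted names the shRNF113A libraries here. The study assessed RNF113A protein in its depleted A549 cells by western blot, and the counts hold no protein values. Epithelial markers summed to between 4617 and 15926 CPM in every library, whereas all 5 endothelial markers stayed under 1 CPM. The 8 fibroblast markers summed to 6.38 to 37.4 CPM, and 7 of them stayed under 1 CPM in control cells. The 6 blood cell markers summed to 4.53 to 18.9 CPM, and PTPRC, the pan-leukocyte marker, averaged under 1 CPM in every condition. The myeloid marker ITGAM rose with Cisplatin (2.502, SE 0.13, adjusted p = 2.04e-09, edgeR), from 2.26 to 13.5 CPM in control cells and from 1.29 to 6.88 in depleted cells, and CD14 fell (-1.05, SE 0.21, adjusted p = 0.000564, edgeR). Their part in the members' differences with Cisplatin was not tested. On depletion 4 of 8 epithelial markers rose and 0 fell past an adjusted p of 0.05 and a fold of 2 (edgeR). Of those tested, 2 of 5 fibroblast markers rose and 1 fell, the 1 endothelial marker rose and 0 of 2 blood cell markers passed. Over all genes 11.0% passed. EPCAM read 7.02, 18.4 and 5.57 CPM in untreated control and 85.5, 93.7 and 97.6 in untreated depleted cells. The part of these markers was not tested. Replicate 2 of the control cells stood apart from replicates 1 and 3 for several members. It lay above the mean of the other 2 untreated control libraries by 1.61 times for ADAMTS9, 1.70 times for ADAMTS10, 2.04 times for ADAMTS13 and 2.49 times for ADAMTS15, and the epithelial marker EPCAM was 2.92 times and the collagen gene COL1A1 5.39 times as high in it. Values without both control replicate 2 libraries are given beside the members they moved most.

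ADAMTS7 gave the result that rests on sequence, and its alternative 3′ splice site is shown first. Exon 8 of the coding transcript ADAMTS7-201 lies on the minus strand of chromosome 15 in GRCh37, at chr15:79080573-79080716, and is 144 bases long. A second acceptor inside that exon leaves out its first 76 bases and joins the exon before it, at chr15:79082031-79082180, to the last 68 bases. Gencode v44lift37 lists the shorter form as exon 8 of ADAMTS7-203, a transcript with no defined coding sequence, and 76 is not a multiple of 3. The stretch below runs from 50 bases inside the intron to 30 bases past the second acceptor (chr15:79080611-79080766, minus strand), with the 76 optional bases in capitals. Both acceptors follow the dinucleotide ag.

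ADAMTS7 alternative 3′ splice site: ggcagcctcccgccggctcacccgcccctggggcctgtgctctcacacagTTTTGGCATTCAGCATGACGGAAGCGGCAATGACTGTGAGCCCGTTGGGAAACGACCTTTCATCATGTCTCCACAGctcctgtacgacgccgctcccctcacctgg

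Promoters are shown for ADAMTS7 and ADAMTS12, the closely related pair of which one was higher and the other lower after Cisplatin. Of the 10 genes, 5 had an entry in the RefSeq promoter table (GRCh38.p14), namely ADAMTS6, 7, 10, 12 and 13. The 250 bases before each start were searched on both strands for 5 motifs. The TATA box was written as TATAAA. The box bound by the factor NF-Y was written as CCAAT. The GC box, bound by the SP family of factors, was written as GGGCGG. The AP-1 motif was written as TGANTCA and allows any base at N. The cyclic AMP response element was written as TGACGTCA. The matches are in capitals.

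ADAMTS7, chr15:78811465-78811714, minus strand: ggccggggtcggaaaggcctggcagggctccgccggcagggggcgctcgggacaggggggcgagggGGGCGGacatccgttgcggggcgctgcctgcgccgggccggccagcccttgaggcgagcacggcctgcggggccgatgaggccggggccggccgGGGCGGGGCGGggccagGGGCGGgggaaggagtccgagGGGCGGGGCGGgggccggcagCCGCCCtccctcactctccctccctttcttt
ADAMTS12, chr5:33891991-33892240, minus strand: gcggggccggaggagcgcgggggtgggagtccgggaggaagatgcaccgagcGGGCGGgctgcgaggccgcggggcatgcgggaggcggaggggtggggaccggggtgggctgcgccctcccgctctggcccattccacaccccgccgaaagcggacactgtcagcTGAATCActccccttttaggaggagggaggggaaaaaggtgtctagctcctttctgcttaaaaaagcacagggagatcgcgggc

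The 2 windows differed in composition. That of ADAMTS7 was 80.8% G and C and held the GC box 7 times, counting both strands and overlaps, with none of the other 4 motifs. That of ADAMTS12 was 68.4% G and C and held the GC box and the AP-1 motif 1 time each. Among 35116 promoters of the table the median was 58.0% G and C, 42.6% held the GC box and 6.57% held the AP-1 motif. The TATA box was found in 10.7% of them, the NF-Y box in 32.0% and the cyclic AMP response element in 1.65%. Among the 5 genes the TATA box and the NF-Y box were found in ADAMTS10 alone, which has 2 entries in the table. A match of letters is not a binding site.

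Of the 10 genes, 8 passed the filter on low counts, and ADAMTS4 and ADAMTS5 did not. With the limits used throughout (adjusted p under 0.05 and a fold of at least 2), 5 of the 8 were past them for Cisplatin, 2 higher (ADAMTS1 and ADAMTS7) and 3 lower (ADAMTS9, ADAMTS12 and ADAMTS15), where 21.5% of all 15352 genes were. For depletion 3 were past them, ADAMTS1 higher and ADAMTS9 and ADAMTS12 lower, against 11.0% of all genes. None was for the interaction of the 2 in edgeR, against 1.28%, nor by DESeq2 (0), and 1 member (ADAMTS10) had an unadjusted p under 0.05. The median log2 fold change of the 8 was -0.91 for Cisplatin and -0.82 for depletion, and that of all genes 0.03 and -0.00. These comparisons chose the genes, and nothing is read from the counts.

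Within single conditions the counts of members past the limits were 6 for Cisplatin in control cells (19.8% of all genes), 5 for Cisplatin in depleted cells (23.1%), 5 for depletion in untreated cells (8.66%) and 4 for depletion in Cisplatin-treated cells (12.3%). Without the 2 control replicate 2 libraries these counts were 5, 5, 3 and 3. The shares above come from all libraries, those without control replicate 2 are not given here, and nothing is read from these counts. Each pair of comparisons shares libraries, so their values are given side by side and not set against each other.

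**Figure D1:**
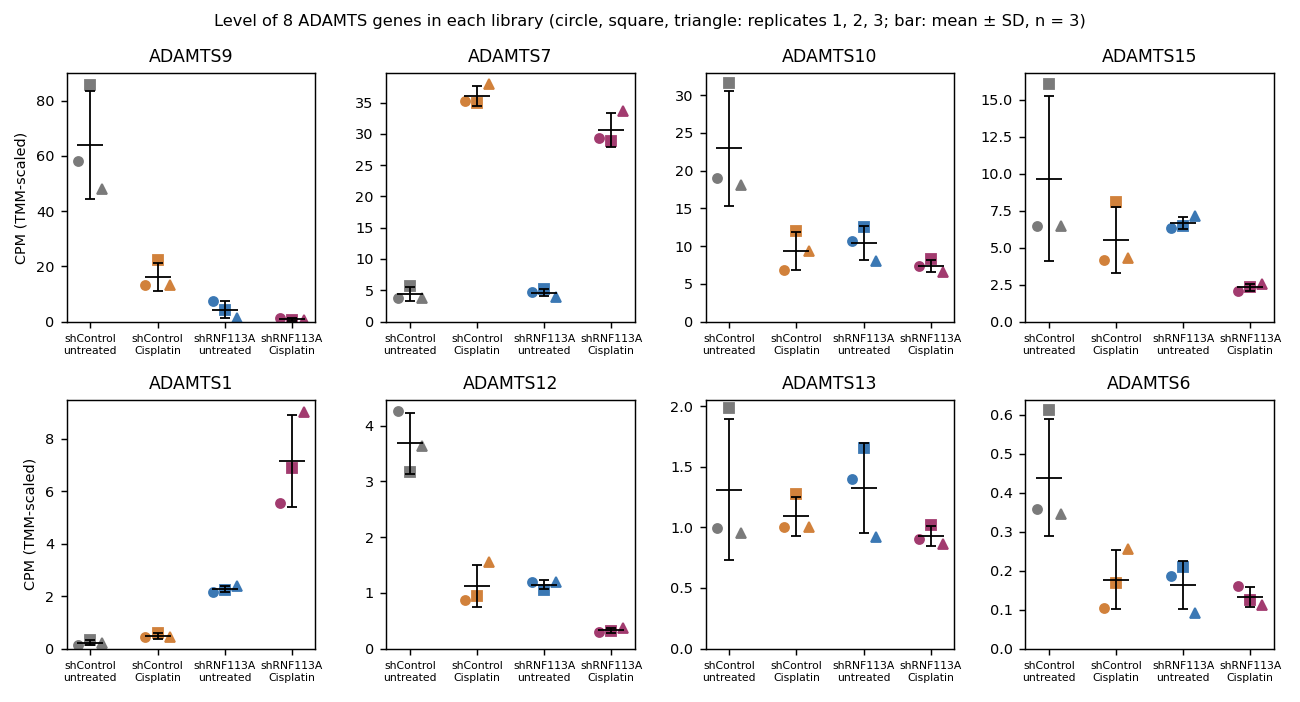
Level of the 8 genes that passed the filter, in TMM-scaled CPM on a linear axis from 0, in each of the 12 libraries (circle, square and triangle for replicates 1, 2 and 3, bars for mean ± SD). ADAMTS9 ran from 85.7 in an untreated control library to 0.486 in a treated depleted one, ADAMTS7 split by Cisplatin and ADAMTS1 by the shRNA.

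Among the proteoglycan-cleaving enzymes, ADAMTS9 had the highest level in untreated control cells, was lower with either treatment and was lowest with both. ADAMTS9 (chr3:64501333-64673676, minus strand, hg19), which cleaves versican and aggrecan, read 58.2, 85.7 and 48.0 CPM in untreated control cells and 13.4, 22.1 and 13.1 after Cisplatin. In depleted cells it read 7.46, 4.20 and 1.45 untreated and 1.36, 0.680 and 0.486 after Cisplatin. The 4 groups of libraries did not overlap, and replicate 3 of the untreated depleted cells came near the Cisplatin-treated ones. Fitted log2 fold changes of ADAMTS9 were -1.98 (SE 0.42) for Cisplatin in control cells and -2.37 (SE 0.57) in depleted cells. For depletion they were -3.86 (SE 0.46) in untreated and -4.24 (SE 0.55) in Cisplatin-treated cells, so the level in depleted cells was 0.0690 and 0.0528 of that in control cells. The interaction of the 2 was -0.39 (SE 0.71), within its error. Without both control replicate 2 libraries the depletion values were -3.58 and -3.95. Replicate 1 of the untreated depleted cells moved ADAMTS9 most: without it the depletion value in untreated cells was -4.48 and the Cisplatin value in depleted cells -1.75.

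ADAMTS1 ran the other way on depletion. ADAMTS1 (chr21:28208066-28217728, minus strand, hg19), another versican- and aggrecan-cleaving enzyme, read 0.138, 0.331 and 0.212 CPM in untreated control cells (5 to 13 read pairs) and 0.421, 0.601 and 0.426 after Cisplatin. In depleted cells it read 2.171, 2.23 and 2.40 untreated and 5.56, 6.89 and 9.02 after Cisplatin. Every depleted library was above every control library, and every Cisplatin-treated library above the untreated ones of its kind. The fitted depletion values were 3.29 (SE 0.30) in untreated and 3.88 (SE 0.27) in Cisplatin-treated cells, 9.76-fold and 14.7-fold. Those for Cisplatin were 1.06 (SE 0.33) in control cells and 1.66 (SE 0.24) in depleted cells. In control cells the value ran from 0.82 to 1.44 as single libraries were left out. Without both control replicate 2 libraries the Cisplatin value of ADAMTS1 in control cells was 1.25. Its depletion values were then 3.66 in untreated and 4.06 in Cisplatin-treated cells.

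ADAMTS15 (chr11:130318869-130346532, plus strand, hg19), an aggrecan- and versican-cleaving enzyme, read 6.47, 16.1 and 6.44 CPM in untreated control cells and 4.16, 8.11 and 4.32 after Cisplatin. In depleted cells it read 6.33, 6.48 and 7.10 untreated and 2.07, 2.32 and 2.54 after Cisplatin. Only the treated depleted libraries lay below all others. The fitted Cisplatin values of ADAMTS15 were -1.52 (SE 0.37) in depleted cells and -0.81 (SE 0.34) in control cells, and the depletion values -1.26 (SE 0.37) with Cisplatin and -0.54 (SE 0.34) without. The last rested on control replicate 2, since without both of those libraries it was 0.04, and the value with Cisplatin was then -0.88. The interaction of ADAMTS15 was -0.72 (SE 0.50). It was -1.30 without the untreated control replicate 2, -0.92 without both control replicate 2 libraries and -0.37 without the treated one alone.

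ADAMTS4 and ADAMTS5, the aggrecanases best known from cartilage, were barely or not seen. ADAMTS5 (chr21:28290231-28338832, minus strand, hg19) had no read pair in any of the 12 libraries, which allows a level of up to 0.0638 to 0.112 CPM by library (3 counts, for counting error only). ADAMTS4 (chr1:161154098-161168846, minus strand, hg19) had 0 or 1 read pair in 8 libraries, 8 in replicate 2 of the Cisplatin-treated control cells, and 7, 3 and 2 in the Cisplatin-treated depleted cells. ADAMTS4 was not tested. Its treated depleted libraries lay above the untreated depleted ones (1, 0 and 0 read pairs), at counts too low for a fold change.

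The pair that cleaves cartilage oligomeric matrix protein was split. ADAMTS7 (chr15:79051545-79103773, minus strand, hg19) read 3.79, 5.63 and 3.79 CPM in untreated control cells and 35.2, 35.0 and 37.9 after Cisplatin. In depleted cells ADAMTS7 read 4.79, 5.17 and 3.97 untreated and 29.4, 28.8 and 33.7 after Cisplatin. All 6 Cisplatin-treated libraries lay above all 6 untreated ones. The fitted Cisplatin values were 3.03 (SE 0.16) in control cells and 2.72 (SE 0.16) in depleted cells, 8.17-fold and 6.58-fold, with an interaction of -0.31 (SE 0.21). Without both control replicate 2 libraries the Cisplatin value of ADAMTS7 in control cells was 3.27 and the interaction -0.56. Depletion moved ADAMTS7 by 0.08 (SE 0.16) in untreated and -0.23 (SE 0.14) in Cisplatin-treated cells, although the treated depleted libraries lay just below the treated control ones. ADAMTS7 has pseudogene copies, so read pairs that match several places are missing from its count, and the copy named ADAMTS7P1 had none in any library.

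ADAMTS12 (chr5:33523640-33892297, minus strand, hg19), its close relative, read 4.26, 3.16 and 3.63 CPM in untreated control cells and 0.868, 0.938 and 1.55 after Cisplatin. In depleted cells it read 1.19, 1.05 and 1.20 untreated and 0.291, 0.309 and 0.374 after Cisplatin. It was lower with either treatment and lowest with both. Its 4 fitted values lay within 1 SE of each other, at -1.71 (SE 0.23) and -1.82 (SE 0.29) for Cisplatin in control and depleted cells and -1.68 (SE 0.24) and -1.79 (SE 0.29) for depletion without and with Cisplatin. The interaction of ADAMTS12 was -0.11 (SE 0.35).

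The fibrillin-linked pair was lower in every treated or depleted group than in untreated control cells. ADAMTS10 (chr19:8645126-8675620, minus strand, hg19) read 19.1, 31.7 and 18.1 CPM in untreated control cells, 6.87, 11.95 and 9.30 after Cisplatin, 10.7, 12.5 and 7.99 in untreated depleted cells and 7.33, 8.25 and 6.59 in treated depleted cells. The untreated control libraries lay above all others, and the other 3 groups overlapped. The fitted values of ADAMTS10 were -1.29 (SE 0.25) for Cisplatin in control cells and -1.14 (SE 0.25) for depletion in untreated cells, and -0.49 (SE 0.25) and -0.34 (SE 0.25) for the same treatments on top of the other. Without both control replicate 2 libraries the first was -1.19 and the second -0.83. ADAMTS6 (chr5:64444563-64777747, minus strand, hg19) was rare, at 13, 24 and 13 read pairs in untreated control libraries and 3 to 12 in the others, and its fitted values of -1.28 (SE 0.40) for Cisplatin in control cells and -1.40 (SE 0.41) for depletion in untreated cells were -0.90 and -1.07 without both control replicate 2 libraries.

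ADAMTS13 (chr9:136279478-136324508, plus strand, hg19), the protease of von Willebrand factor, showed no separation of groups. It read 0.995, 1.99 and 0.955 CPM in untreated control cells, 1.00, 1.27 and 1.00 after Cisplatin, 1.40, 1.65 and 0.922 in untreated depleted cells and 0.905, 1.02 and 0.861 in treated depleted cells. All 4 fitted values of ADAMTS13 lay between -0.52 and 0.02, with SE of 0.31 to 0.32. Without both control replicate 2 libraries its depletion value in untreated cells was 0.46 and its Cisplatin value in control cells 0.04.

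**Figure D2:**
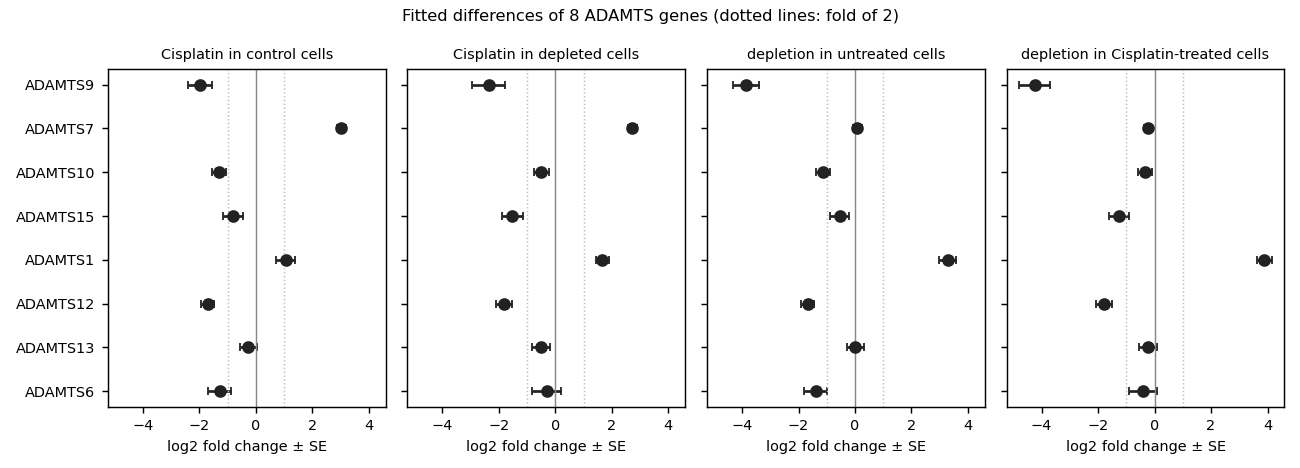
Fitted log2 fold change ± SE of the 8 genes in the 4 comparisons within one condition (dotted lines mark a fold of 2). ADAMTS7 stands at 3.03 and 2.72 for Cisplatin and within 0.23 of 0 for depletion, and ADAMTS9 and ADAMTS1 lie at opposite ends for depletion.

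Levels can be compared between genes only per length, here as CPM per kb of Gencode v19 exon. Per the study's methods the counts used another annotation of hg19 (Illumina iGenomes), so orders and shares are approximate. In untreated control cells ADAMTS12 had 154, 124 and 137 read pairs in these counts and 215, 187 and 206 exonic reads on Gencode v19. ADAMTS10 went the other way, at 691, 1243 and 682 against 581, 1078 and 606. In untreated control cells the order was ADAMTS9 at 7.33 ± 2.23, ADAMTS10 at 5.30 ± 1.75, ADAMTS15 at 1.70 ± 0.980 and ADAMTS7 at 0.802 ± 0.194 (SD, n = 3). The levels of ADAMTS9 and ADAMTS10 overlapped between libraries, but within each of the 3 libraries ADAMTS9 was the higher, at 48.8, 44.8 and 45.1% of the sum of the family against 32.3, 33.4 and 34.3%. ADAMTS15 was likewise above ADAMTS7 in each. After Cisplatin ADAMTS7 came first in control cells at 6.56 ± 0.303 and in depleted cells at 5.58 ± 0.490, followed by ADAMTS10, which stood at 1.71 ± 0.193 in the depleted cells. In untreated depleted cells ADAMTS10 led at 2.40 ± 0.529, ahead of ADAMTS15 at 1.17 ± 0.0724 and ADAMTS7 at 0.846 ± 0.112. In treated depleted cells ADAMTS1 followed ADAMTS10, at 1.34 ± 0.327.

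The 10 genes summed to 15.9 ± 5.23 CPM per kb in untreated control cells, 12.02 ± 1.49 after Cisplatin, 5.76 ± 0.865 in untreated depleted cells and 9.38 ± 0.636 in treated depleted cells. ADAMTS9 made up 46.3 ± 2.23%, 15.2 ± 3.07%, 8.32 ± 5.25% and 1.05 ± 0.626% of that sum in the same order, and ADAMTS7 5.13 ± 0.497%, 55.2 ± 7.30%, 14.7 ± 0.495% and 59.4 ± 2.08%. ADAMTS10 held 33.4 ± 1.00% and 41.5 ± 3.64% in untreated control and depleted cells and 17.8 ± 2.73% and 18.3 ± 2.92% after Cisplatin. ADAMTS7 held the largest share in each of the 6 Cisplatin-treated libraries, though under 50% in replicate 2 of the treated control cells (46.8%).

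**Figure D3:**
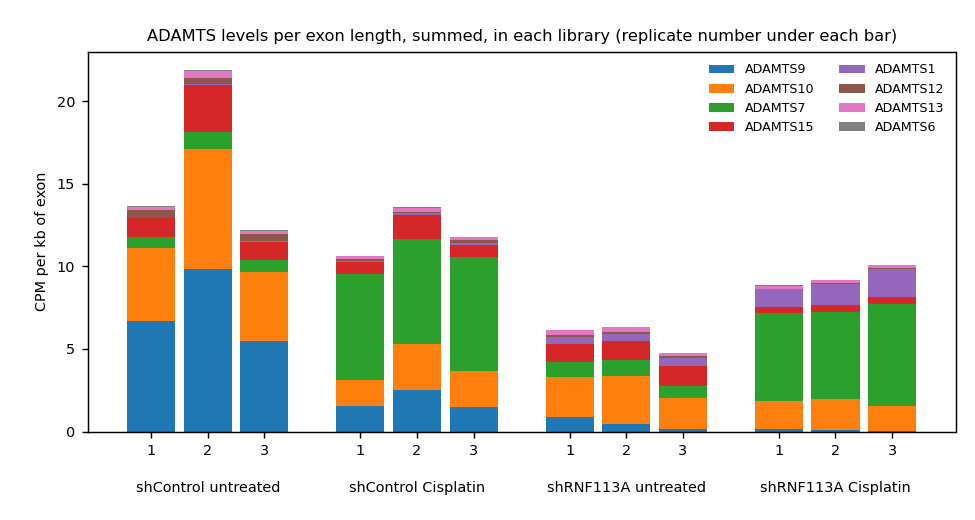
Stacked levels of 8 ADAMTS genes in CPM per kb of exon for each of the 12 libraries, by condition (replicate number under each bar). ADAMTS9 and ADAMTS10 fill most of the untreated control bars, and ADAMTS7 is the tallest segment of each Cisplatin bar, at 46.8 to 60.8% of it, and control replicate 2 has the tallest untreated bar.

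The genes whose pattern over the 12 libraries was most like that of ADAMTS7 and of ADAMTS10 were ranked by Pearson's r of log2(CPM + 1) among 9776 other genes whose mean reached 10 CPM. For ADAMTS7 they were TP53INP1 (r = 0.996), XPC (0.995) and ZDHHC9 (0.995). For ADAMTS10 they were TTC19 (0.977), LPCAT1 (0.962) and TSKU (0.953). TP53INP1, a stress-response gene and known p53 target, averaged 9.40 and 9.33 CPM in untreated control and depleted cells and 190 and 121 after Cisplatin. XPC, a damage sensor of nucleotide excision repair, averaged 52.6 and 56.5 CPM untreated and 219 and 199 after Cisplatin. All 12 points share the 4 conditions, so a like response to the drug or the shRNA is enough to give a high r.

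Reads outside exons were also compared with those in exons, since unspliced transcripts carry introns. Intronic reads are those that HTSeq placed in the gene and not wholly in its exons. The denominator holds exonic reads of the kind that chose the genes, so a member that was lower in exons may have a higher ratio for that reason, and the calls are a description. Of the 10 genes 6 had at least 1 exonic and 1 intronic read in every library. Those past an adjusted p of 0.05 were 2 for Cisplatin in control cells (ADAMTS12 and ADAMTS15), where 18.7% of 11488 genes were. The value of ADAMTS15 there (1.17, SE 0.41) lost the limit without any 1 of 10 of the 12 libraries. The count was 4 for Cisplatin in depleted cells (ADAMTS7, 9, 12 and 15), where 65.4% were. They were 1 for depletion in untreated cells (ADAMTS10), against 28.4%, and 4 for depletion in Cisplatin-treated cells (ADAMTS7, 9, 10 and 15), against 81.7%. The share of intronic among genic reads over all genes was 2.00 ± 0.307%, 2.96 ± 1.32%, 3.49 ± 0.468% and 7.28 ± 0.160% in untreated control, treated control, untreated depleted and treated depleted libraries.

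ADAMTS7 had 118 or more exonic and 56 or more intronic reads in each library, but its ratio varied within conditions. ADAMTS7 held 44.4, 28.1 and 47.6 intronic per 100 exonic reads in untreated control cells, 57.3, 40.6 and 76.0 after Cisplatin, 68.4, 57.7 and 51.7 in untreated depleted cells and 111.9, 101.3 and 103.4 in treated depleted cells. In treated control replicates 1, 2 and 3 the share of intronic among genic reads over all genes was 2.67, 1.82 and 4.41%. The treated depleted libraries lay above all others. The log2 ratio of ADAMTS7 was 0.90 (SE 0.22) higher on depletion with Cisplatin and 0.83 (SE 0.24) higher with Cisplatin in depleted cells, against medians of 0.96 and 0.75 over all genes.

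ADAMTS10 separated by the shRNA. It held 78.8, 61.9 and 65.3 intronic per 100 exonic reads in untreated control cells and 69.4, 46.1 and 79.6 after Cisplatin, but 110, 96.3 and 121 in untreated and 120, 102 and 94.5 in treated depleted cells. Every depleted library lay above every control library. The log2 ratio of ADAMTS10 was 0.67 (SE 0.21) higher on depletion in untreated cells and 0.73 (SE 0.22) with Cisplatin, against medians of 0.47 and 0.96. The value in untreated cells lost the limit without any 1 of 5 libraries, untreated control replicate 2 or 3 or any untreated depleted replicate (0.59 to 0.76), while for Cisplatin it was -0.11 (SE 0.21) and -0.04 (SE 0.22).

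ADAMTS12, ADAMTS15 and ADAMTS9 rested on few intronic reads in depleted cells (4 to 12, 7 to 14 and 1 to 28). ADAMTS12 held 10.7 ± 0.826 intronic per 100 exonic reads in untreated and 32.1 ± 1.12 in treated control cells (SD, n = 3), and 14.3 ± 7.83 and 46.8 ± 12.2 in depleted cells. Treated and untreated libraries of ADAMTS12 did not overlap. ADAMTS9 held 8.46 ± 0.843, 11.7 ± 2.14, 6.79 ± 4.30 and 23.4 ± 11.3 in the same order of groups as its levels above. For depletion with Cisplatin, ADAMTS9 and ADAMTS15 lost the limit without both control replicate 2 libraries (log2 ratios of 0.87 and 0.69) and each without any 1 of 3 libraries, and ADAMTS9 for Cisplatin in depleted cells without treated depleted replicate 2 (1.09). ADAMTS13 ranged from 52.9 intronic per 100 exonic reads in untreated control replicate 2 to 184.0 in untreated depleted replicate 3, with group means of 82.2 ± 26.1 in untreated control and 114.3 ± 14.01 in treated depleted cells, and passed no limit in any of the 4 comparisons.

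**Figure D4:**
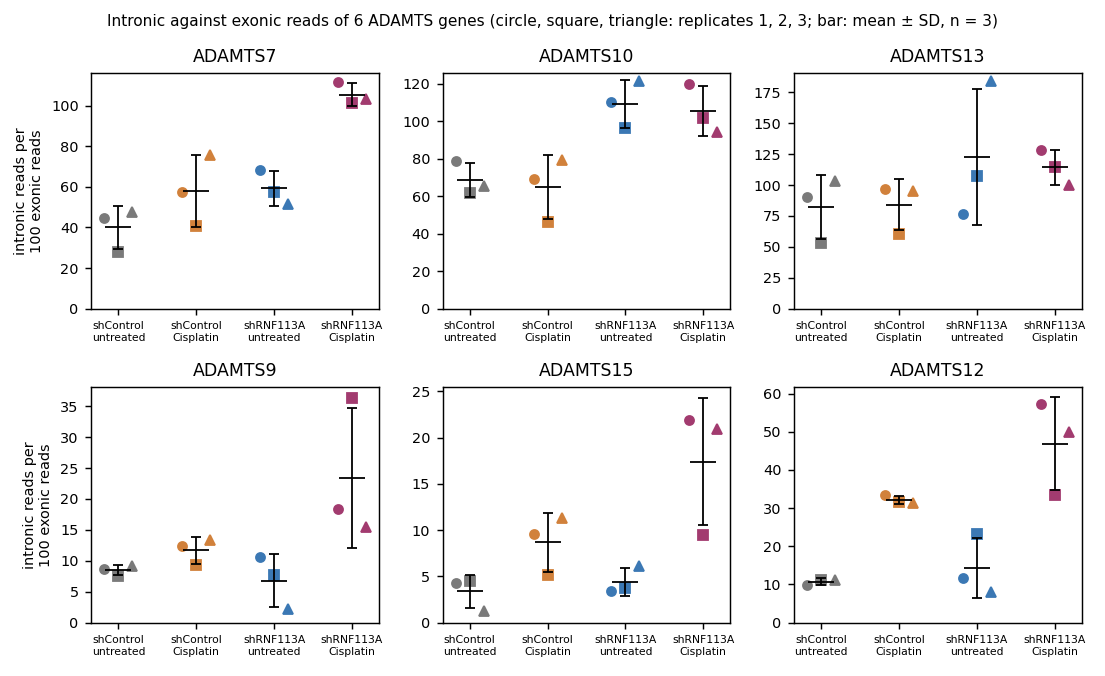
Intronic reads per 100 exonic reads of the 6 ADAMTS genes with both in every library, by library (symbols for replicates 1 to 3, bars for mean ± SD, linear axes from 0). ADAMTS7 is highest in treated depleted cells at 101.3 to 111.9, ADAMTS10 is split by the shRNA, and ADAMTS12 by Cisplatin.

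Splicing within the genes is a measure that the choice of members did not use, and it was tested on the inclusion and skipping reads of rMATS. Events with at least 10 reads in every library numbered 28 of 48 for Cisplatin in control cells, 5 of 25 for Cisplatin in depleted cells, 9 of 44 for depletion in untreated cells and 14 of 33 for depletion in Cisplatin-treated cells. They lay in ADAMTS1, 7, 9, 10 and 15 and many overlapped. The limits were an adjusted p under 0.05 in edgeR's quasi-likelihood test and inclusion levels at least 20 points apart. At the same limits but with rMATS's own test, the study reported many more events, with retained introns the category most often affected. Here 34 of 3434 retained-intron events were past the limits for depletion in untreated cells and 84 of 3541 in Cisplatin-treated cells. Low shares in the test used here are therefore not read as little change in splicing. None of the member events was past the limits in the first 3 comparisons, in which 0.0681%, 0.283% and 0.058% of all events were, and none of those had an unadjusted p under 0.05. In the last, 1 was, where 0.172% of all events were.

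That event is the ADAMTS7 acceptor shown above. In Cisplatin-treated control cells the longer form, with the 76 bases, had 78, 84 and 82 reads and the shorter form 16, 7 and 16. In Cisplatin-treated depleted cells the longer form had 48, 43 and 30 and the shorter form 19, 14 and 25. The inclusion level of the longer form, corrected for the lengths of the 2 forms, was 75.7 ± 8.40% and 50.6 ± 12.2% (SD, n = 3), and the 2 groups did not overlap, at 70.3 to 85.4% and 36.9 to 59.9%. The difference was -25.1 points, with a log2 ratio of -1.59 (SE 0.47) and an adjusted p of 0.0300 in edgeR's quasi-likelihood test over 4665 events of its category. Leaving out 1 library at a time gave differences of -29.7 to -18.2 points with adjusted p of 0.0360 to 0.479, and the call was lost without library a (0.0712) or b (0.341) of the treated control cells and without library a (0.0849) or c (0.479) of the treated depleted cells.

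Untreated cells had too few reads at this acceptor for the same comparison. Control cells had 12, 15 and 17 reads in all and levels of 84.3, 57.2 and 47.1%, and depleted cells had 14, 12 and 5 reads and a level of 64.1% in the first, with no read of the shorter form in the other 2. For Cisplatin in control cells the difference was 12.8 points (adjusted p = 0.814, edgeR). Of the other member tests none had an adjusted p under 0.343, and the largest difference was 16.5 points, in a retained-intron event of ADAMTS10 (the intron and both flanking exons span chr19:8660957-8661296 in hg19) whose inclusion was 39.3 ± 2.07% in untreated control and 55.8 ± 12.1% in untreated depleted cells (adjusted p = 0.343, edgeR).

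**Figure D5:**
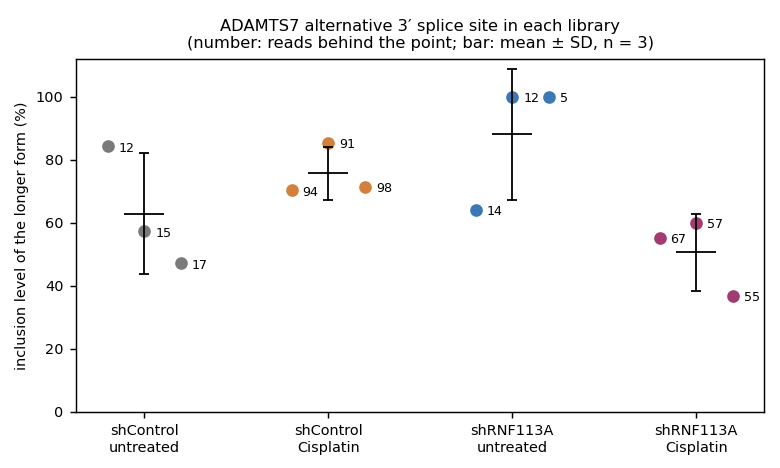
Inclusion level of the longer form at the ADAMTS7 alternative 3′ splice site in each library, in percent, with the number of reads behind each point (bars for mean ± SD). Cisplatin-treated control libraries lie at 70.3 to 85.4% and treated depleted ones at 36.9 to 59.9%, and untreated libraries rest on 5 to 17 reads.

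The other ADAMTS genes were low in these cells and, where called, lower. Over all genes 21.5% were past the limits for Cisplatin and 11.0% for depletion. Counts for these genes and the lists below are not read as results about the lists. The lists were chosen with earlier results of these data known. After the ADAMTS-like genes, mainly the called genes with the largest changes are named, so their adjusted p-values describe picked genes. Of 9 listed, 4 were tested, and for Cisplatin 2 fell, ADAMTS2 (-1.96, SE 0.45, adjusted p = 0.00148) and ADAMTS3 (-2.34, SE 0.51, adjusted p = 0.00103), both procollagen N-proteinases (edgeR, adjusted over all genes). ADAMTS3 also fell on depletion (-1.30, SE 0.49, adjusted p = 0.0437), a call lost without both control replicate 2 libraries (-0.67, adjusted p = 0.219, edgeR) and without any 1 of 7 of the 12 libraries. ADAMTS8 and ADAMTS16 did not pass both limits, at -1.06 (SE 0.51) and -0.52 (SE 0.20) for Cisplatin. ADAMTS14, 17, 18, 19 and 20 were too low to test, with at most 12 read pairs in a library.

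Among the ADAMTS-like genes, relatives with no protease domain, 5 of 7 were tested. For Cisplatin 2 fell, where 21.5% of all genes were past the limits, and 11.0% were for depletion. THSD4 (ADAMTSL6), a fibrillin-binding matrix protein and the most abundant of the group, went from 262 ± 29.6 to 34.4 ± 4.74 CPM in control cells and from 293 ± 34.9 to 28.0 ± 1.49 in depleted cells (-3.16, SE 0.11, adjusted p = 7.82e-11 in edgeR). Its depletion value was -0.06 (SE 0.10). ADAMTSL3 fell by 2.07 (SE 0.56, adjusted p = 0.00488), and PAPLN, papilin, rose on depletion by 1.71 (SE 0.48, adjusted p = 0.0107), at under 1 CPM in every library (edgeR). The PAPLN call was lost on counts without regard to strand (0.50, adjusted p = 0.153, edgeR). ADAMTSL4 and ADAMTSL5 did not reach the fold limit for either term. For depletion in Cisplatin-treated cells alone, 3 of the 5 rose, PAPLN, ADAMTSL3 and ADAMTSL5, where 12.3% of all genes were past the limits. ADAMTSL5 went from 3.72 ± 0.947 to 8.02 ± 0.480 CPM (1.11, SE 0.20, adjusted p = 0.00112, edgeR). These within-condition calls were not recomputed under the alternatives.

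Of 19 known substrates 10 were tested. For Cisplatin 2 rose and 2 fell, where 21.5% of all genes were past the limits. For depletion 3 rose and 4 fell, where 11.0% were. VCAN, versican, the proteoglycan that ADAMTS1, 9 and 15 cleave, fell on depletion by 2.21 on the log2 scale (SE 0.16, adjusted p = 6.19e-07), from 452 ± 176 to 84.9 ± 17.7 CPM untreated and from 290 ± 15.4 to 72.2 ± 4.77 with Cisplatin (edgeR). FN1, fibronectin, fell by 3.23 (SE 0.13, adjusted p = 4.00e-09) and FBN2, fibrillin-2, by 1.22 (SE 0.18, adjusted p = 0.000160), while COL3A1 rose by 2.52 (SE 0.40, adjusted p = 0.000228) at under 1 CPM (edgeR). For Cisplatin, SDC4, the cell-surface proteoglycan syndecan-4, rose by 1.65 (SE 0.15, adjusted p = 3.63e-07), and VEGFC (-1.54, SE 0.23, adjusted p = 3.99e-05) and FBN1, fibrillin-1 (-1.31, SE 0.20, adjusted p = 6.54e-05), fell (edgeR). BCAN, brevican, rose by 3.27 (SE 0.30, adjusted p = 4.85e-07), but was at 0.14 (adjusted p = 0.431) on counts without regard to strand (edgeR). ACAN, aggrecan, had at most 2 read pairs in a library and was not tested.

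Of 13 inhibitors and processing genes 12 were tested, and for Cisplatin 1 rose and 4 fell. Over all genes 21.5% were past the limits for Cisplatin and 11.0% for depletion. LRP1, the receptor that takes up several ADAMTS proteins, rose by 1.57 (SE 0.18, adjusted p = 4.19e-06, edgeR). The convertases PCSK5 (-2.04, SE 0.25, adjusted p = 7.81e-06) and PCSK6 (-1.76, SE 0.11, adjusted p = 8.46e-09) and CCBE1, a cofactor of ADAMTS3 in the cleavage of VEGFC, (-2.57, SE 0.42, adjusted p = 9.69e-05) fell (edgeR). On depletion TIMP3, the main tissue inhibitor of ADAMTS enzymes, fell by 1.73 (SE 0.42, adjusted p = 0.00472), at no more than 17 read pairs in a library (edgeR).

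The ADAM and MMP genes encode related metalloproteinases. Their counts stand beside 21.5% of all genes past the limits for Cisplatin and 11.0% for depletion. Of 12 ADAM genes 11 were tested, and for Cisplatin 3 fell, ADAM12 (-4.16, SE 0.20, adjusted p = 1.27e-09), ADAM22 (-2.52, SE 0.18, adjusted p = 3.43e-08) and ADAM28 (-1.58, SE 0.32, adjusted p = 0.000618, edgeR). On depletion ADAM28 rose (2.49, SE 0.32, adjusted p = 5.63e-05) and ADAM23 fell (-1.82, SE 0.17, adjusted p = 3.72e-06, edgeR). Of 22 matrix metalloproteinases 12 were tested. MMP19 (2.498, SE 0.42, adjusted p = 0.000130) and MMP25 (1.05, SE 0.31, adjusted p = 0.00788) rose and MMP16 (-2.26, SE 0.36, adjusted p = 7.60e-05) fell with Cisplatin (edgeR). On depletion 3 rose and 2 fell, among them MMP28 (2.75, SE 0.22, adjusted p = 9.45e-07), MMP25 (1.62, SE 0.31, adjusted p = 0.000895), MMP7 (-1.38, SE 0.20, adjusted p = 0.000108) and MMP16 (-1.12, SE 0.35, adjusted p = 0.0178, edgeR). The MMP25 value for Cisplatin missed the fold limit on counts without regard to strand (0.79), on HTSeq reads (0.96) and without any 1 of 4 libraries of depleted cells (0.90 to 0.96). Without both control replicate 2 libraries 6 MMP genes passed for Cisplatin in place of 3, and 4 ADAM genes for depletion in place of 2. The shares of all genes without those libraries are not given here. The MMP16 value was -0.74 (adjusted p = 0.0758) without control replicate 2 (edgeR).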

How the data were processed

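RNA of 12 A549 libraries (4 conditions, 3 each) was sequenced as stranded mRNA libraries. Per the labels and the study's methods, the authors made read counts per gene with STAR 2.5.2b on hg19, counts of exonic and genic reads with HTSeq on Gencode v19 protein-coding genes, and inclusion and skipping reads of splicing events with rMATS. bcl2fastq 2.17 is named in the submitters' processing notes. All files were deposited as raw counts, and the p-values, FDR and inclusion differences in the rMATS tables were not used.

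Members and lists were chosen with earlier results of these data known. The strand-specific STAR counts were filtered by expression, scaled by TMM and fitted with edgeR 4.0.16 (R 4.3.3) by the quasi-likelihood test, over all 12 libraries, with Benjamini-Hochberg adjustment over 15352 genes. Limits were an adjusted p of 0.05 and a fold of 2. Cisplatin and depletion were fitted as additive terms, the interaction and the comparisons within one condition by groups. DESeq2 1.42.0 was an alternative. Intronic against exonic reads and inclusion against skipping reads were tested by the same tool, the latter per category with at least 10 reads in every library. The splicing tables do not name their libraries, called a, b and c here. Each test was also run on simulated data, for splicing on retained introns only, and the outcomes are not given here. These runs did not cover alternative 3′ splice sites. All members, other ADAMTS and ADAMTS-like genes are named, and from each other list up to 4 called genes with the largest change. Same-numbered libraries deviated together for Cisplatin in control cells (r = 0.63, 0.73 and 0.48 over 9779 genes), and these were treated as pairs as an alternative. The alternatives were strand, scaling, filter, tool, counting, replicate block and libraries left out. Counting intervals and floors cover counting error only. The genes most like ADAMTS9 over the libraries are not reported here.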

Additional observations from a re-analysis of the deposited data

Results flagged for a closer look

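The effect of Cisplatin differed between control and depleted cells for 2 genes of the lists, by the interaction term of edgeR's quasi-likelihood test. Over all genes 1.28% were past the limits for the interaction. The values of these 2 genes were not recomputed under the alternatives, control replicate 2 left out among them. MMP7, matrilysin, had an interaction of 1.14 (SE 0.22, adjusted p = 0.0189, edgeR) on the log2 scale. It stood at 112.02 ± 25.7 CPM in untreated and 58.3 ± 9.01 in Cisplatin-treated control cells (SD, n = 3), and at 29.0 ± 1.84 and 33.3 ± 4.36 in depleted cells. PCSK5, a proprotein convertase, had an interaction of -1.37 (SE 0.34, adjusted p = 0.0421, edgeR). It stood at 2.44 ± 0.165 and 0.898 ± 0.0580 CPM in control cells and at 2.91 ± 0.752 and 0.417 ± 0.0931 in depleted cells.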

How the results depend on the processing

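No value past the limits changed sign under any alternative run. With at least 10 counts in every library, the members past the limits numbered 3 for Cisplatin, 1 for depletion, 3 for Cisplatin in control and 3 in depleted cells, and 2 for depletion in untreated and 2 in treated cells, since fewer members were tested. Those tested were ADAMTS7, ADAMTS9, ADAMTS10, ADAMTS13 and ADAMTS15. The shares of all genes past the limits under that filter are not given here. Under that filter the other ADAMTS genes gave 0 for Cisplatin and 0 for depletion, ADAMTS-like genes 1 and 0, MMP genes 0 and 3, inhibitors 0 and ADAM genes 1 for depletion. With no filter the other ADAMTS genes gave 4 and 0 and MMP genes 6 and 8. The depletion count of the other ADAMTS genes was also 0 by DESeq2, with the replicate block and without both control replicate 2 libraries. That of ADAMTS-like genes was 0 without strand and by HTSeq reads. Without both control replicate 2 libraries, chosen after seeing the data, the counts were 3 members for depletion in untreated cells, 2 ADAMTS-like and 4 ADAM genes for depletion and 6 MMP genes for Cisplatin. The cause was not tested.

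Of the members' intron ratios, 0, 1 and 2 were past the limit for Cisplatin in control cells, Cisplatin in depleted cells and depletion in treated cells with at least 10 reads of each kind, 1 with the replicate block for Cisplatin in control cells (ADAMTS15 was lost), and 2 without both control replicate 2 libraries for depletion in treated cells. Only ADAMTS7, ADAMTS10 and ADAMTS13 had at least 10 reads of each kind in every library. The shares of all genes under these alternatives are not given here. With the replicate block the members past the limits numbered 5 for Cisplatin, 4 for depletion, 6 and 5 for Cisplatin in control and depleted cells, and 5 and 4 for depletion in untreated and treated cells. No paired analysis was possible for splicing because the libraries in its tables are unnamed.

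Leaving out 1 library at a time gave 4 to 7 members for Cisplatin, 3 to 5 for depletion, 0 to 1 for the interaction, 4 to 6 and 5 to 5 for Cisplatin in control and depleted cells, and 3 to 5 and 3 to 4 for depletion in untreated and treated cells. The lists gave, for Cisplatin and depletion, 2 to 3 and 0 to 1 (other ADAMTS), 2 to 2 and 1 to 2 (ADAMTS-like), 4 to 7 and 5 to 8 (substrates), 5 to 5 and 1 to 2 (inhibitors), 3 to 4 and 2 to 4 (ADAM) and 2 to 6 and 3 to 7 (MMP). Intron ratios gave 1 to 4, 3 to 4, 0 to 2 and 2 to 4, and splicing 0 to 1 for depletion in treated cells. Depth limits ADAMTS1, 4, 5 and 6, which had few reads.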
